A study of Mus musculus with 6 samples.

Results

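Imprinted long non-coding RNAs are described here in nuclear RNA of mouse cardiomyocyte nuclei. The set was fixed by gene name as Meg3, Rian, Mirg, Kcnq1ot1, Airn, Peg13, Snhg14 and H19, and all 8 were found among the 54232 genes of the expression table. The study sequenced nuclear RNA from left ventricles of adult male mice in 2 groups of 3 libraries: isogenic wild-type mice (WT), which carry a Y chromosome of 129P2 origin on a C57BL/6 background, and UtyGT mice, which carry in addition a gene trap in the fourth intron of Uty, a Y-linked gene. Nuclei were stained for PCM1, a protein that surrounds the nuclei of cardiomyocytes, and 150000 sorted nuclei gave each library. The trap is in the germ line, so every cell of a UtyGT mouse carries it, and no other allele or agent was used. Libraries carry the numbers 11, 15 and 31, each once per group, and are called WT 11, UtyGT 11 and so on. How many animals gave a library is not stated, so the p-values reflect only how much these libraries vary, and part of that variation may be technical.

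An imprinted gene is transcribed mainly from the chromosome inherited from one parent, and imprinted genes lie in clusters that often hold a long non-coding RNA. Airn, Kcnq1ot1, Peg13 and Snhg14 are made from the paternal chromosome, and the best known of them, Airn and Kcnq1ot1, are needed for the silencing of neighbouring genes on that chromosome. H19, Meg3, Rian and Mirg are made from the maternal chromosome and host small RNAs, and H19 is abundant in embryonic tissues and falls after birth in most of them. The libraries were made from total RNA without selection for poly(A) tails, and nuclear RNA holds unspliced transcripts that stay at their locus, the usual place of Airn and Kcnq1ot1. The reads do not separate the alleles, so no value below speaks of which parental chromosome was transcribed.

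The members lie on 4 chromosomes (GRCm38, annotation of GENCODE M21). Meg3 (ENSMUSG00000021268, chr12:109541001-109571726), Rian (ENSMUSG00000097451, chr12:109603940-109661716) and Mirg (ENSMUSG00000097391, chr12:109729764-109749460) follow each other on the plus strand of the Dlk1-Dio3 cluster. Airn (ENSMUSG00000078247, chr17:12741311-12860136, plus strand) starts in intron 2 of Igf2r, the gene of the receptor that clears insulin-like growth factor 2, and runs against it. Its span of 118826 bp holds only 3597 bp of annotated exon, and none of these bases is in an exon of another gene. Kcnq1ot1 (ENSMUSG00000101609, chr7:143203458-143296549, minus strand) is 1 unspliced exon of 93092 bp that starts in intron 11 of the potassium channel gene Kcnq1 and runs against it. Peg13 (ENSMUSG00000106847, chr15:72805600-72810324, minus strand) is a single exon in intron 16 of Trappc9 and has the same strand as that gene, so that reads of unspliced Trappc9 RNA can fall in its row. Snhg14 (ENSMUSG00000100826, chr7:59307924-59975759, minus strand) ends across the tail of the ubiquitin ligase gene Ube3a, with which it shares 1803 exon bases, or 6.91% of its own. H19 (ENSMUSG00000000031, chr7:142575529-142578143, minus strand) is the smallest locus, with 2460 bp of exon.

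Promoter sequences were found in RefSeq (GRCm38.p6, 250 bases before to 50 after the start) for 6 of the 8 members. Those of Kcnq1ot1 and Meg3 are shown because their starts lie within 5 bp of the counted genes' starts, because each holds a motif known for its gene, and because these members stood far apart in level. In Kcnq1ot1 (chr7:143296498-143296797, minus strand) the capitals mark CCAAT, the letters of the CCAAT box, and in Meg3 (chr12:109540746-109541045, plus strand) they mark TGACGTCA, the cyclic AMP response element.
Kcnq1ot1: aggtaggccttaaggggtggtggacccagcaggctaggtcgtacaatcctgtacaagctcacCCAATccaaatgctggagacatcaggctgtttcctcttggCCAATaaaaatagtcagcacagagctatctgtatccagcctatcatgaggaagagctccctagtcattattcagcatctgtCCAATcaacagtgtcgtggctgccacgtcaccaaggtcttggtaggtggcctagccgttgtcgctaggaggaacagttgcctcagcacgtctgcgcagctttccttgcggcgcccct
Meg3: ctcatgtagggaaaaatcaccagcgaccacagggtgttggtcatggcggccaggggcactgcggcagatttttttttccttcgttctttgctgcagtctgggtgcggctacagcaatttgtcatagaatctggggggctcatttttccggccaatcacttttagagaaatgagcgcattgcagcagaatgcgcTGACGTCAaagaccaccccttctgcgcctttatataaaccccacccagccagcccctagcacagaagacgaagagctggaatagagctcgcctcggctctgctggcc
The promoter of Kcnq1ot1 held 3 copies of CCAAT, counted on both strands as CCAAT or ATTGG, which begin 188, 148 and 67 bases before the start. At least 1 copy stood in 37.4% of the 32851 promoters of the table and 3 or more in 3.37%. The promoter of Meg3 held TGACGTCA, which reads the same on both strands, 57 bases before the start, a match found in 1.79% of promoters. It also held 1 CCAAT match, which does not overlap it. These matches describe letters in a window and say nothing of a factor bound there.

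The maternally expressed members host miRNAs, and 1 mature miRNA of each host is shown, with its seed (bases 2 to 8) in capitals, to set the products of these genes beside the reads of their hosts. A pair from Mirg is added because it shares a seed.
miR-675-5p (H19): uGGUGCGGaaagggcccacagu
miR-770-5p (Meg3): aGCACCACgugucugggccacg
miR-370-3p (Rian): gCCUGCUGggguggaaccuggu
miR-410-3p (Mirg): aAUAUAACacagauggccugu
miR-453 (Mirg): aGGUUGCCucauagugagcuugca
miR-496a-5p (Mirg): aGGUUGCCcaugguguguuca
RefSeq gave 37 mature sequences for 20 of the 21 miRNA genes that lie inside members on their strand, and these held 36 different seeds. The seed shared by miR-453 and miR-496a-5p was the single repeat. The libraries measure long RNA, so a miRNA row counts reads on the precursor, not on the mature miRNA.

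The libraries held between 18204752 and 23252887 reads on genes, and 3 reads, the most that a count of 0 allows, are worth between 2.76 and 3.24 normalised read counts. A normalised read count is the gene's read count divided by 1 size factor per library. Uty fell from 1212, 1332 and 1314 in WT 11, 15 and 31 to 22.1, 14.1 and 19.9 in UtyGT 11, 15 and 31, as the labels require. Cardiomyocyte markers were the most abundant markers, with a summed level of 8 genes between 1963411 and 2387135, and markers of other cell types were low but not absent. The 8 leukocyte markers summed to between 689 and 19928 and all 8 were called by library number in a limma F test, and the 8 fibroblast markers summed to between 807 and 3880. In a bulk sample, fewer cells of a type and less RNA per cell cannot be told apart.

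By total count, which does not allow for gene length, the members fell into an abundant group and a scarce one. The 4 paternally expressed RNAs had 368 normalised read counts or more in each library, and the 4 maternally expressed RNAs had at most 44.1 in any library. Kcnq1ot1 was the most abundant by total count, with 3368, 3338 and 5774 in WT 11, 15 and 31 and 4985, 4212 and 3249 in UtyGT 11, 15 and 31. The ranges of the groups overlapped, with UtyGT 31 below all of WT and WT 31 above all of UtyGT. Airn had 1834, 1773 and 1943 in WT and 2207, 1643 and 1635 in UtyGT, in the same order of numbers. UtyGT 11 was the highest library, and the other UtyGT libraries lay below all of WT.

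**Figure D1:**
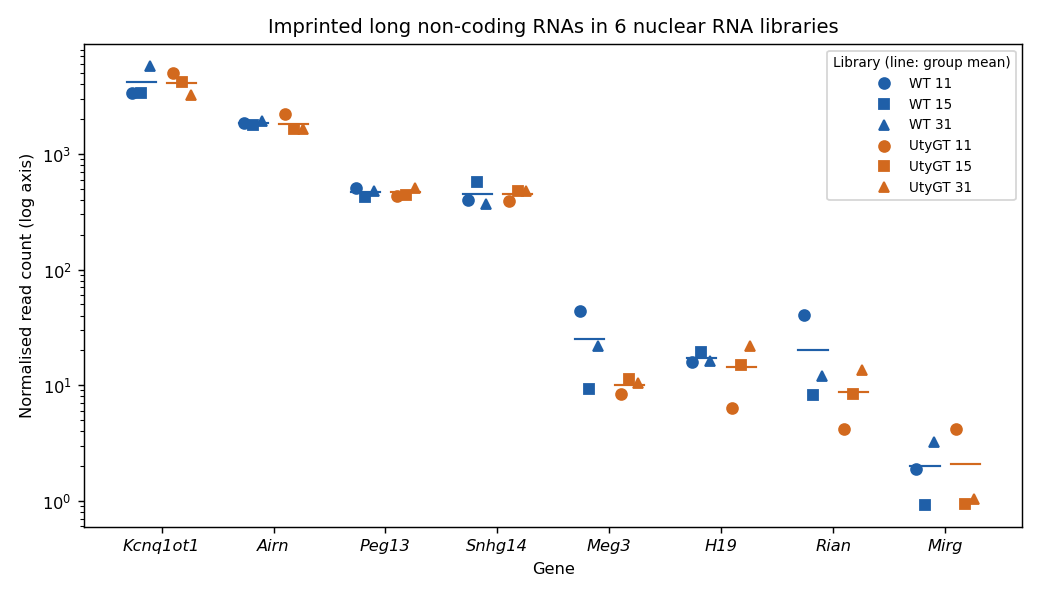
Normalised read count of each imprinted long non-coding RNA (log axis) in the 3 WT and 3 UtyGT libraries, with the library number as marker shape and the group mean as a line. Kcnq1ot1, Airn, Peg13 and Snhg14 lie at 368 or above in each library, and Meg3, H19, Rian and Mirg at 44.1 or below.

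Peg13, a paternally expressed RNA best known from brain, had 512, 421 and 476 in WT and 436, 445 and 512 in UtyGT, a narrow range in which the groups overlapped. Snhg14, the long host transcript of the Snord115 and Snord116 snoRNAs, whose far end is antisense to Ube3a, had 403, 569 and 368 in WT and 395, 473 and 479 in UtyGT. Its highest and lowest libraries were both WT. H19, a maternally expressed RNA that hosts miR-675, had 15.9, 19.4 and 16.2 in WT and 6.31, 15.03 and 22.0 in UtyGT, so that the UtyGT libraries enclosed those of WT. Meg3, the first RNA of the maternal Dlk1-Dio3 transcription unit, had 44.1, 9.21 and 21.6 in WT and 8.42, 11.3 and 10.5 in UtyGT. WT 11 and WT 31 lay above all UtyGT libraries, and WT 15 lay among them.

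Rian, the host of C/D-box snoRNAs downstream of Meg3, had 40.3, 8.29 and 11.9 in WT and 4.21, 8.45 and 13.6 in UtyGT. Only WT 11 lay above the UtyGT range. Mirg, the miRNA host at the end of the unit, had 1.88, 0.921 and 3.24 in WT and 4.21, 0.939 and 1.05 in UtyGT, which are 1 to 4 reads per library. It was detected in all 6 libraries, but with 4 reads at most no level could be told from another, since 4 reads have an exact Poisson 95% interval of 1.09 to 10.2 reads and 1 read one of 0.0253 to 5.57. These intervals cover counting error only, as amplified reads are not independent molecules.

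Levels of different genes can be compared only per length, so each normalised read count was divided by the kilobases (kb) of annotated exon. This length joins the exons of all annotated transcripts of a gene, 1 for Kcnq1ot1 and Peg13, 11 for Meg3 and 20 for Rian. It can exceed the length of any single transcript, so the order depends in part on the annotation. On this scale Airn came first, with a mean of 511 per kb over the 6 libraries (454.6 to 614), above 94.96% of the 16184 tested genes of known length. Peg13 followed with 98.9 (89.1 to 108), then Kcnq1ot1 with 44.6 (34.9 to 62.0), Snhg14 with 17.2 (14.1 to 21.8) and H19 with 6.42 (2.57 to 8.92). Meg3 with 0.968 (0.465 to 2.44), Rian with 0.793 (0.231 to 2.21) and Mirg with 0.280 (0.126 to 0.577) closed the order. Ranges of neighbours did not overlap from Airn down to the step between H19 and Meg3. That last step was narrow, with a lowest H19 value of 2.57 and a highest Meg3 value of 2.44. The H19 value rests on 6 reads in UtyGT 11, which have an exact Poisson 95% interval of 2.20 to 13.1 reads. Meg3 and Rian overlapped, as did Rian and Mirg, with the upper of each pair higher in 5 of 6 libraries. Kcnq1ot1 was thus first by total count but the third per kb, because its reads are spread over an exon of 93092 bp. Meg3 and Rian ranked 16168 and 16177 of the 16184 genes per kb, near the bottom of all genes that passed the filter. The filter is by total count, and their means were 17.5 and 14.5 over 18089 and 18234 bp of exon. Their low ranks thus follow from the filter and their exon lengths.

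**Figure D2:**
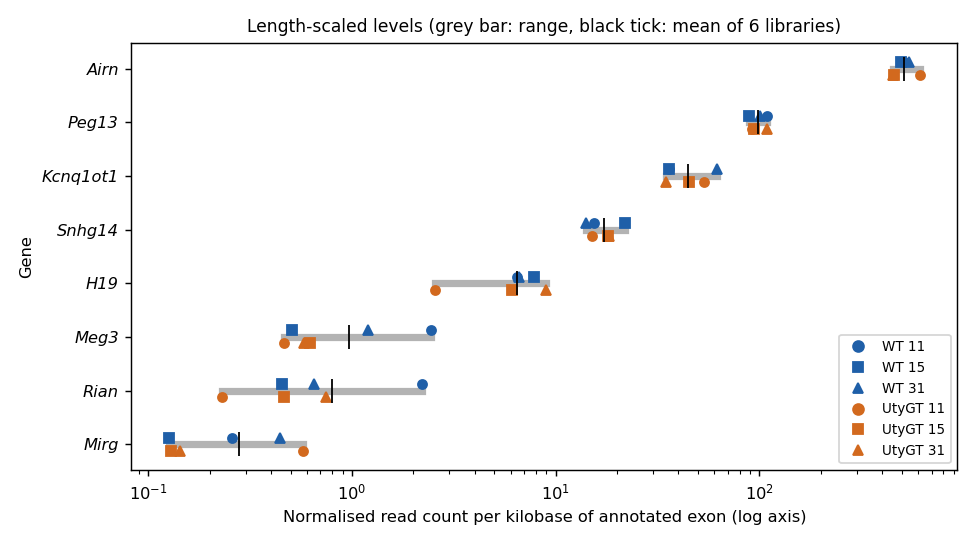
Normalised read count per kb of annotated exon (log axis) for each member, with points for the 6 libraries, a grey bar for their range and a black tick for their mean. The bars separate from Airn at 511 to H19 at 6.42 and overlap between Meg3, Rian and Mirg.

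Each exon-based level leaves out most of the span of Airn, whose introns are not counted. Some rows of other genes lie beyond the start of Igf2r and inside those introns, and give a view of them by strand. The non-coding row Gm23833 (252 bp, plus strand as Airn) had between 282 and 464 normalised read counts, and the pseudogene row Gm16574 (745 bp, plus strand, chr17:12818793-12819537) between 293 and 379.8. Per kb, Gm23833 had a mean of 1454 and Gm16574 one of 455, beside 511 for the exons of Airn. The pseudogene row Gm7162 (1024 bp, minus strand), 281 bp further on, had between 6.48 and 13.7 normalised read counts and a mean of 9.90 per kb. The row on the strand of Airn was thus between 34.4 and 69.2 times higher per kb than its neighbour on the other strand, in all 6 libraries. Pseudogene rows can share reads with their parent genes, and rows shorter than a few fragments gain from reads that overhang their ends, so these levels are approximate. Mas1, a minus-strand gene at the far end of Airn, had a mean of 25.7 per kb. The strand setting of the authors' counting is not stated in the sources used here.

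**Figure D3:**
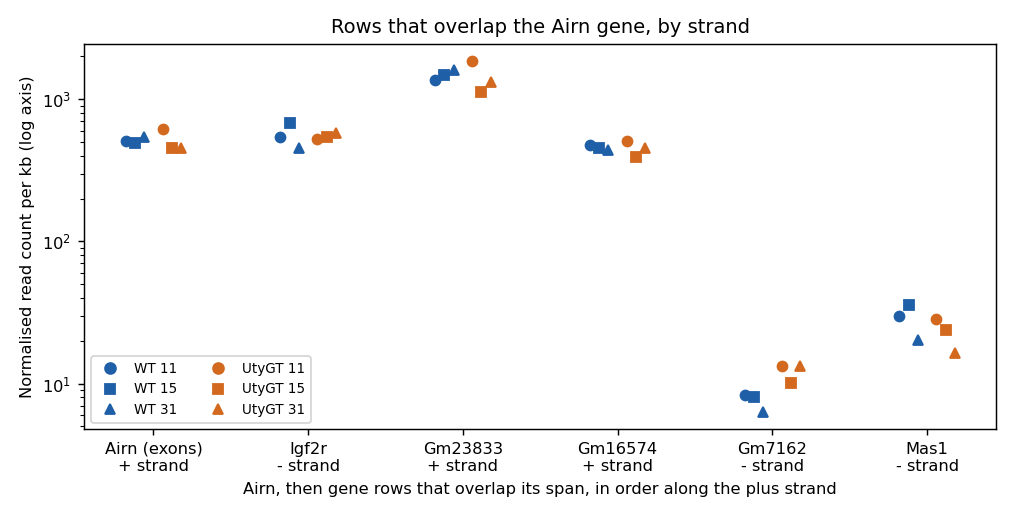
Normalised read count per kb (log axis) in the 6 libraries for the exons of Airn and for the 5 gene rows that overlap its span, with the strand of each row under its name. Igf2r, on the minus strand, lies between 453.6 and 680.1, and beyond the start of Igf2r the plus-strand rows lie at 393 or above and the minus-strand rows at 35.9 or below.

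Inside Kcnq1ot1 no gene is annotated on its own strand. Of its exon bases, 1.202% lie in exons on the other strand, of Kcnq1 and of 4 short non-coding rows. Those 4 rows had means between 15.8 and 29.0 normalised read counts, or between 57.0 and 148 per kb. These values were above the 44.6 per kb of Kcnq1ot1 itself, and the rows are on the strand of Kcnq1, whose span holds them. The rows are only 119 to 460 bp long, so reads that overhang their ends can raise these values, and the comparison per kb is approximate. The part of unspliced Kcnq1 RNA in them was not tested. Gm26906, a non-coding gene opposite to Meg3 with which it shares 1228 exon bases, had 0 reads in each of the 6 libraries, as had the 2 short rows opposite to H19.

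The small RNAs hosted by the members had almost no reads as separate rows. Of the 21 miRNA genes inside Meg3, Rian, Mirg and H19, 19 had 0 reads in the 6 libraries together, and the other 2 shared 4 reads, while 1505 of all 2202 miRNA genes had 0 reads. Mir675, inside H19, and Mir770, inside Meg3, were among those at 0. Of the 208 snoRNA genes inside Snhg14, which include the repeated Snord115 and Snord116 copies, 205 had 0 reads and the other 3 shared 6 reads, and all 13 in Rian had 0. Over all genes of the expression data, 336 of 1507 snoRNA genes had reads. How reads on near-identical copies, or on bases shared with the host's exons, were treated is not stated, so rows at 0 do not show that these small RNAs were absent.

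The comparison of UtyGT with WT asked which nuclear transcripts differ when Uty carries the trap. No imprinted long non-coding RNA passed the test. With limma on log2(normalised read count + 1) and Benjamini-Hochberg adjustment over all genes, 0 of the 7 members with a mean of at least 10 were called at 0.05, beside 0.00617% of the 16202 genes tested, which is 1 gene, Uty. At an unadjusted p under 0.05 there were 195 genes and 0 members. By edgeR and DESeq2 on the recovered reads 0 members were called as well. Ddx3y, a Y-linked gene that the study reports as significantly decreased in these nuclei by DESeq2, was not called by limma. The limma test can thus miss a strong change, and 0 calls do not show that no member changed. Mirg, with a mean of 2.04, did not pass the filter.

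The abundant members gave narrow intervals around 0. Airn had a log2 fold change of -0.03, UtyGT over WT, with a standard error (SE) of 0.13 and a 95% interval of -0.33 to 0.27 (limma, n = 3 and 3, adjusted p = 0.9996). Peg13 had -0.02 with an interval of -0.29 to 0.25, and Snhg14 had 0.03 with an interval of -0.40 to 0.45. Kcnq1ot1 had 0.02 with a wider interval of -0.56 to 0.61. A change of 2-fold, which is 1 on this scale, lay outside each of these intervals, and a change inside them could not be told from 0. The adjusted p was 0.9996 for each of the 7 members by limma.

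The scarce members gave wide intervals. Meg3 had -0.99 (SE 0.56, interval -2.33 to 0.34, unadjusted p = 0.122 by limma, adjusted p = 0.9996), and Rian had -0.93 (SE 0.68, interval -2.54 to 0.68). Both intervals held 0 and also a 2-fold difference in the downward direction. The difference of Meg3 rested in part on WT 11. It was -0.47 without that library and -1.54 without WT 15, where the unadjusted p was 0.0121 and the adjusted p 0.851. Rian did not pass the filter without WT 11, and with the genes of the full set kept it was then -0.29 (adjusted p = 1 by limma), so the size of its difference rested on that library. At number 15, Meg3 was higher in UtyGT than in WT, and at numbers 11 and 31 lower. H19 had -0.38 (interval -1.51 to 0.75), and 0.08 without UtyGT 11, its lowest library.

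**Figure D4:**
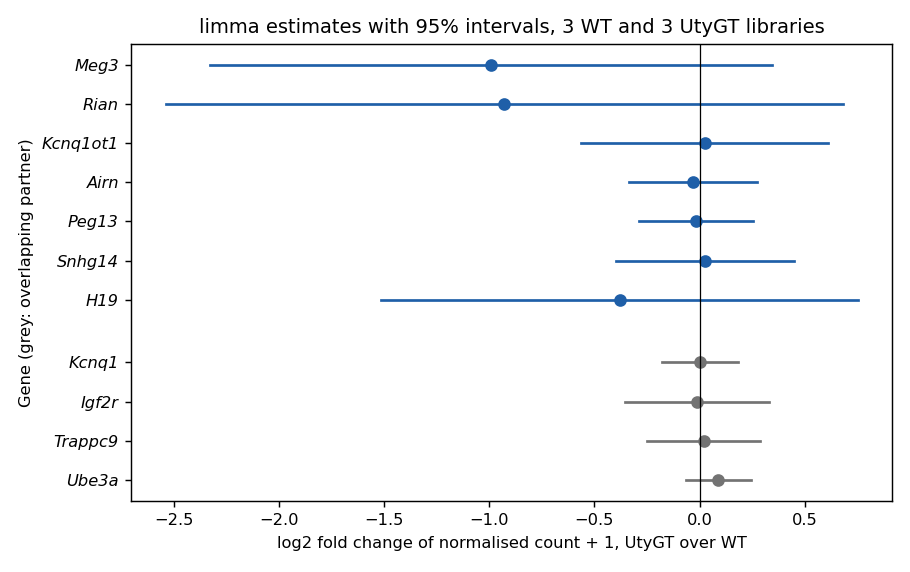
Log2 fold change, UtyGT over WT, on the scale of normalised read count + 1, as limma estimates with 95% intervals for the 7 members tested (blue) and for the 4 genes that overlap a member (grey). All 11 intervals hold 0, and those of Meg3, Rian and H19 are the widest.

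The spread of the members between libraries differed among them. The coefficient of variation over the 6 libraries was 8.42% for Peg13, 11.7% for Airn, 16.6% for Snhg14 and 25.1% for Kcnq1ot1. For the genes with a mean within 2-fold of each of these members, the median coefficient was 10.2%, 8.64%, 10.3% and 8.76%. Kcnq1ot1 thus varied more than most genes of like level, and with 3108 to 5344 reads its exact Poisson 95% intervals of the highest and lowest libraries, 5620 to 5931 in WT 31 and 3136 to 3366 in UtyGT 31 in normalised read counts, were far apart. Among the scarce members it was 33.6% for H19, 79.3% for Meg3 and 90.5% for Rian, with medians of 34.5%, 33.9% and 34.8% for like genes. For Meg3 the interval of WT 11, 32.4 to 58.6, did not overlap that of any UtyGT library, the highest of which reached 19.7. These intervals cover counting error only, and libraries of the same group differed beyond it. Intervals that do not overlap therefore speak of single libraries and not of the groups.

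No member was called between library numbers. In a limma F test of the numbers 11, 15 and 31 with the group as covariate, 0 of the 7 members were called, where 4.79% of all genes tested were called. Snhg14 came nearest, with an unadjusted p of 0.151 and an adjusted p of 0.893 by limma. The 2 libraries of Kcnq1ot1 that stood highest, WT 31 and UtyGT 11, have different numbers and different groups.

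Meg3 and Rian had a similar pattern over the libraries, with WT 11 far above the rest. On the log2(normalised read count + 1) scale WT 11 lay 1.54 above the mean of the 6 libraries for Meg3 and 1.74 for Rian. UtyGT 11 was the lowest library for both, at -0.72 and -1.25. By the root mean square difference of these centred values, Rian was the 24th nearest of the other 16201 genes to Meg3, and Meg3 the 40th nearest to Rian. The other members lay far down both orders, at position 1275 or beyond. Rian passed the filter only with WT 11 included. Outside WT 11, Meg3 had 8 to 20 reads per library and Rian 4 to 13. The positions therefore depend on a library that also admitted Rian to the tested genes, and they are no independent support for a shared pattern.

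The nearest genes to Meg3 were Sall2, Cd200 and Mmrn1, and those to Rian were Il1r1, Aebp1 and Scarf2. Like Rian, Sall2 and Mmrn1 passed the filter only with WT 11 included, so their nearness to Meg3 is no independent support for a shared pattern. The summed fibroblast markers had the same extreme library, with 3880, 807 and 1602 in WT 11, 15 and 31 and 896, 889.6 and 2484 in UtyGT 11, 15 and 31. Leukocyte and endothelial markers were also highest in WT 11, at sums of 19928 and 1776, with 689 to 15414 and 828 to 1064 in the other libraries. None of the markers of these lists was at 0 in all libraries. Between groups, all 8 fibroblast markers lay below 0 on the log2 fold change scale (median -0.39), as did all 8 leukocyte markers (median -0.80). So did all 5 erythroid markers (median -0.47) and all 6 atrial markers (median -1.73), where 8333 of the 16202 genes tested lay below 0. Of 8 endothelial markers 4 lay below 0 (median -0.02), of 8 mural markers 5 (median -0.01) and of 8 cardiomyocyte markers 2 (median 0.06). Markers of 1 list are not independent of each other over these 6 libraries. By limma 0 markers of these lists were called, and the 6 atrial markers had unadjusted p between 0.00648 and 0.0335. Atrial markers summed to 2380, 3257 and 1147 in WT 11, 15 and 31 and 689, 760 and 1271 in UtyGT, highest in WT 15, where Meg3 and Rian were low. UtyGT 31, with the second highest fibroblast sum, was also the second highest library for Rian and the fourth for Meg3. The part of RNA of these cell types in the values of Meg3 and Rian was not tested.

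**Figure D5:**
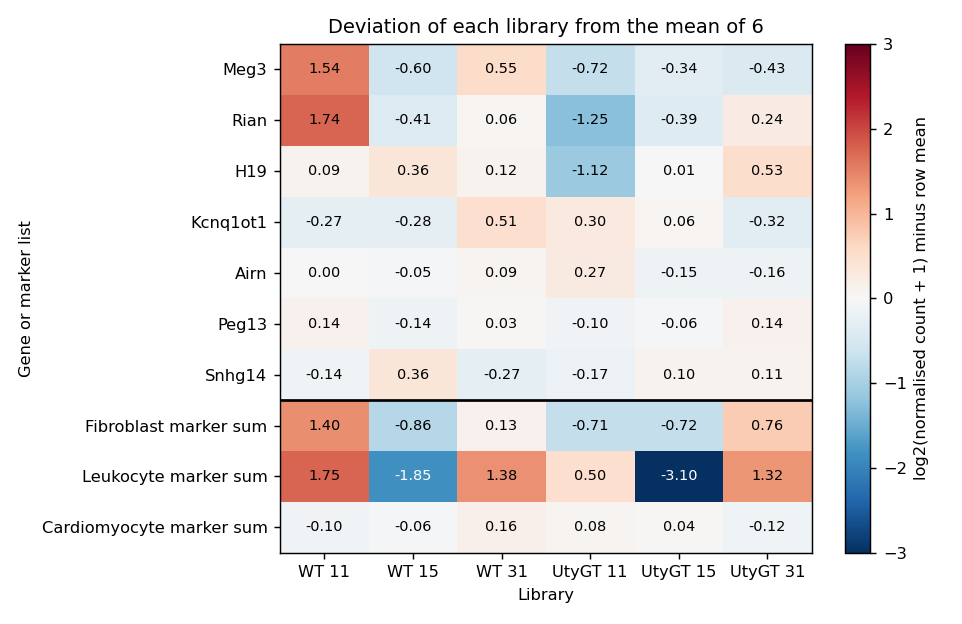
Log2(normalised read count + 1) of the 7 tested members and of 3 summed marker lists in each library, minus the mean of the row over the 6 libraries. WT 11 is the highest library for Meg3, Rian, fibroblast markers and leukocyte markers, while the 4 abundant members deviate by at most 0.51.

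The other members had neighbours of other kinds. The 3 nearest genes to Airn were Tdp2, Stard13 and Mlip, the last a cardiac protein of the nuclear envelope, at root mean square differences of 0.02, 0.04 and 0.04 on the log2 scale. Those to Kcnq1ot1 were Gm48286, Tiaf2 and Apex2, at 0.07 each. Those to Peg13 were Ppm1g, Kdm7a and Uba1, those to Snhg14 were Dnajc19, Zfp964 and Ndufs6, and those to H19 were 9230104M06Rik, Gm15706 and Ttc25. Airn was only the 1550th nearest gene to Kcnq1ot1, although both are paternal RNAs that run against a neighbour. These are descriptions over 6 libraries that share their depth and cell makeup for all genes.

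Airn, Kcnq1ot1, Snhg14 and Peg13 each overlap a protein-coding gene, and the level of the RNA beside that gene was compared between groups. Igf2r had 5054, 6331 and 4223 normalised read counts in WT and 4914, 5017 and 5344 in UtyGT. Per kb of exon, Airn was at a mean of 0.943 times Igf2r (0.725 to 1.19 over the 6 libraries), with the antisense RNA above the coding gene in some libraries and below it in others. The ratio of normalised read counts of Airn to Igf2r was 0.368 ± 0.090 (SD, n = 3) in WT and 0.361 ± 0.077 in UtyGT. Igf2r was lowest in WT 31, where Airn was the second highest.

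Kcnq1, which encodes the pore of a repolarising potassium channel, had between 1587 and 1779 normalised read counts in the 6 libraries. Kcnq1ot1 had 2.47 ± 0.88 times that count in WT and 2.43 ± 0.40 times in UtyGT, but per kb of exon only 0.108 times (0.0825 to 0.153). While Kcnq1ot1 ranged from 3249 to 5774, Kcnq1 stayed within this narrow range. Ube3a had between 2625 and 2965, and the ratio of Snhg14 to Ube3a was 0.162 ± 0.033 in WT and 0.154 ± 0.014 in UtyGT. Trappc9, a gene of vesicle transport, had between 1335 and 1709, and the ratio of Peg13 to Trappc9 was 0.307 ± 0.069 in WT and 0.296 ± 0.042 in UtyGT. In exact two-sided permutation tests of the 4 log2 ratios between groups, p lay between 0.8 and 0.9, where 3 against 3 libraries cannot give less than 0.1.

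The imprinted neighbours of the members were examined as a list of 42 genes in 6 clusters, of which 20 passed the filter. Between UtyGT and WT 9 of these lay above 0 and 11 below on the log2 fold change scale (median -0.02, 0 called by limma), while the median over all genes tested was -0.01. By library number 1 of the 20 was called, a share near the 4.79% of all genes, and it was Tspan32, at 59.1, 3.69 and 35.7 in WT 11, 15 and 31 and 20.0, 0.939 and 48.1 in UtyGT. A second list of 30 other imprinted genes had 21 tested, with 8 above 0 and 13 below (median -0.04), and 0 called. The low level of Meg3, Rian and Mirg was shared by the coding genes of their cluster. Dlk1 and Dio3 had 0 reads in each library, Rtl1 at most 4.32 normalised read counts and Begain at most 8.64. In the H19 cluster, Igf2, the fetal growth factor gene that shares its enhancers with H19, had at most 3.14. In the Kcnq1 cluster, the cell cycle inhibitor gene Cdkn1c had between 19.7 and 43.1, whereas Phlda2 had reads only in UtyGT 11. In the Igf2r cluster, the transporter gene Slc22a3 had between 163 and 276, and Slc22a2 had 0 reads in each library.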

How the data were processed

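Nuclear RNA was sequenced in 6 libraries, 3 per group. Per the submitters' processing notes and the study's methods, the authors used CASAVA 1.4 for base calls, STAR 2.5.1b for alignment (GRCm38), featureCounts 1.6.0 with Ensembl 98 for counting and DESeq2 1.22.2. Libraries were paired-end and made with a stranded total RNA kit. The deposited values are a signal: the read count of a gene over the size factor of the library, with no scaling to gene length. In the table of 6 libraries, 100% of the values above 0 were whole reads, with a tolerance of 0.001 reads, and these recovered reads were used for edgeR and DESeq2. A second deposited table holds 4 of the libraries, of numbers 11 and 31, normalised on its own. The deposited log2 fold changes and standard errors, the deposited test score and the deposited p-values are the authors' own comparison and were not used. Gene positions and exon lengths came from GENCODE M21, the Ensembl 96 annotation of the same build, which held 54079 of the 54232 gene IDs.

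Group differences were tested with limma-trend (limma 3.58.1, R 4.3.3) on log2(normalised read count + 1) for genes with a mean of at least 10, two-sided, with Benjamini-Hochberg adjustment over all genes and a threshold of 0.05. The numbers 11, 15 and 31 were tested with an F test that had the group as covariate. Alternatives were other scalings, pseudocounts and filters, edgeR 4.0.16, DESeq2 1.42.0, the second table, a block by number and leaving out each library. Leaving out WT 11 while keeping all genes of the 6-library filter was added after seeing the data. The tests were checked only on simulated counts drawn independently for each library. That setting lacks the variation by library number seen in these data, so the check does not cover it. Same-group libraries differed beyond sampling noise (chi-square per degree of freedom 15.5 to 48.6), more than repeat sequencing of 1 library would give. The study prepared nuclei on 3 different days and the second table is named for a day effect, but no source used here says which day or animal a number stands for. The block fit treated equal numbers as pairs by their label. The deviations from the group means correlated across genes within each number, at 0.25, 0.80 and 0.41 for 11, 15 and 31. WT 11 correlated more with UtyGT 31, at 0.73, and WT 31 equally with UtyGT 11 and UtyGT 31, at 0.41. These correlations thus set the equal number apart only for number 15, and the pairing of the other numbers is not borne out by them.

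All 8 members were named. The 3 nearest genes to a member were those with the smallest root mean square difference of centred log2 values. Members and gene lists were chosen with earlier results of these data known.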

Additional observations from a re-analysis of the deposited data

How the results depend on the processing

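Of the 7 members tested between groups, 0 were called under any alternative, and 0 were called by library number under any scaling, pseudocount, filter or tool. The count of all genes called between groups was 1, and it was 2 with DESeq2 and between 1 and 2 when 1 library was left out, the higher without UtyGT 31. With the replicate block it was 2 by limma, 1 by edgeR and 4 by DESeq2, and the block changed no member's call. Genes called by number fell from 776 to 478 with a mean of at least 50. With that filter Meg3, Rian and H19 were not tested, and neither was Rian without WT 11, unless the genes of the 6-library filter were kept, an alternative chosen after seeing the data. Under it Rian was -0.29, Meg3 -0.47, Kcnq1ot1 -0.10, Peg13 0.048, Snhg14 -0.035, Kcnq1 -0.020 and Trappc9 -0.090. With it included, Meg3 was negative in 18 of 18 alternatives, between -1.61 and -0.47, and Rian in 17 of 17, between -1.40 and -0.29. These alternatives are refits of the same 6 libraries or of part of them, so the shared sign is no independent support for a decrease. The lowest adjusted p among them was 0.851 for both genes, by limma without WT 15. Log2 fold changes near 0 changed sign. That of Kcnq1ot1 was -0.0031 with quantile scaling, -0.0041 by edgeR, -0.0066 by DESeq2 and -0.13 in the table of 4 libraries. That of Airn was 0.015 and that of Igf2r 0.16 in the table of 4 libraries, and that of Peg13 was 0.00053 with quantile scaling. That of Kcnq1 was -0.0026 with TMM scaling, -0.015 with quantile scaling, -0.0019 by edgeR, -0.0020 by DESeq2, and with the block -0.0025 by edgeR and -0.0025 by DESeq2. With 1 library left out, the log2 fold change ranged from -0.12 to 0.29 for Kcnq1ot1, -0.17 to 0.043 for Airn, -0.093 to 0.048 for Peg13, -0.10 to 0.21 for Snhg14, -0.74 to 0.084 for H19, -0.15 to 0.14 for Igf2r, -0.026 to 0.047 for Kcnq1 and -0.090 to 0.077 for Trappc9. The cause of these moves was not tested. The depth limits Mirg, Rian, Meg3 and H19, with at most 47 reads in a library.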
